A study of Mus musculus with 4 samples.

Results

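Kinesins were compared between splenic regulatory T cells that carry neuropilin-1 (Nrp1) at their surface and those that lack it. Kinesin genes were taken by symbol, as genes named Kif with a number or Kifc, from the probe sets annotated to 1 gene alone. The rule found 41 kinesin genes among the 18193 genes with such a probe set, covered by 104 probe sets. They were divided by known role into 13 mitotic kinesins, 17 transport kinesins and 11 others. Each gene was represented by its brightest probe set, and the 27 genes at or above the median level of all probe sets were tested, as 10 mitotic, 14 transport and 3 other kinesins.

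The cells were CD4+ Foxp3+ cells sorted by flow cytometry from the spleens of Balb/c mice with a green fluorescent reporter for Foxp3, the transcription factor of regulatory T cells. The reporter and strain are common to both groups, the labels name no treatment, and the age given is 4 to 6 weeks for 3 arrays and 4 to 8 weeks for the array titled Nrp1-negative replicate 1. Each group had 2 one-colour arrays, numbered replicate 1 and replicate 2, and nothing in the labels says that they came from separate mice or sorts, so p-values measure only the spread between these arrays, which may be technical. The labels do not say whether animals were pooled. The array titled Nrp1-negative replicate 1 is described as Nrp1-positive in 2 other label fields, its source and its cell type, and was grouped by its title.

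Kinesins are motor proteins that use ATP to walk along microtubules or to take them apart. Transport kinesins carry vesicles, organelles and protein complexes, mostly towards the cell periphery, and in T cells microtubule transport serves granule delivery and the turning of the cell's secretory machinery towards a target. Mitotic kinesins build the spindle, move chromosomes and complete cell division, and their genes are transcribed mainly in dividing cells.

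All values are probe set intensities after the 4 arrays were brought to one trimmed mean. Nrp1 itself had intensities of 339 and 1223 on Nrp1-negative replicates 1 and 2, and of 9344 and 7745 on the Nrp1-positive ones, so the titles and the sorted marker ran the same way, also on the array with conflicting labels. Of 9 regulatory T cell marker genes, 8 were above the filter, and Foxp3 itself was below it, with intensities from 2.16 to 36.4. The replicate numbers differed technically: the deposited trimmed means were 500.003 on both arrays numbered 1 and 150.001 on both numbered 2, and the 3-prime to 5-prime Gapdh control ratio was 1.54 to 1.74 against 0.711 to 0.763. Groups were compared within each replicate number, with limma and the replicate number as a block. A group difference is the Nrp1-positive value less the Nrp1-negative one, as log2 of intensity plus a pseudocount of 18.3, which understates the change of dim genes, and the number of arrays limits their precision. A gene was called at an adjusted p below 0.05 over all 10204 genes tested.

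**Figure D1:**
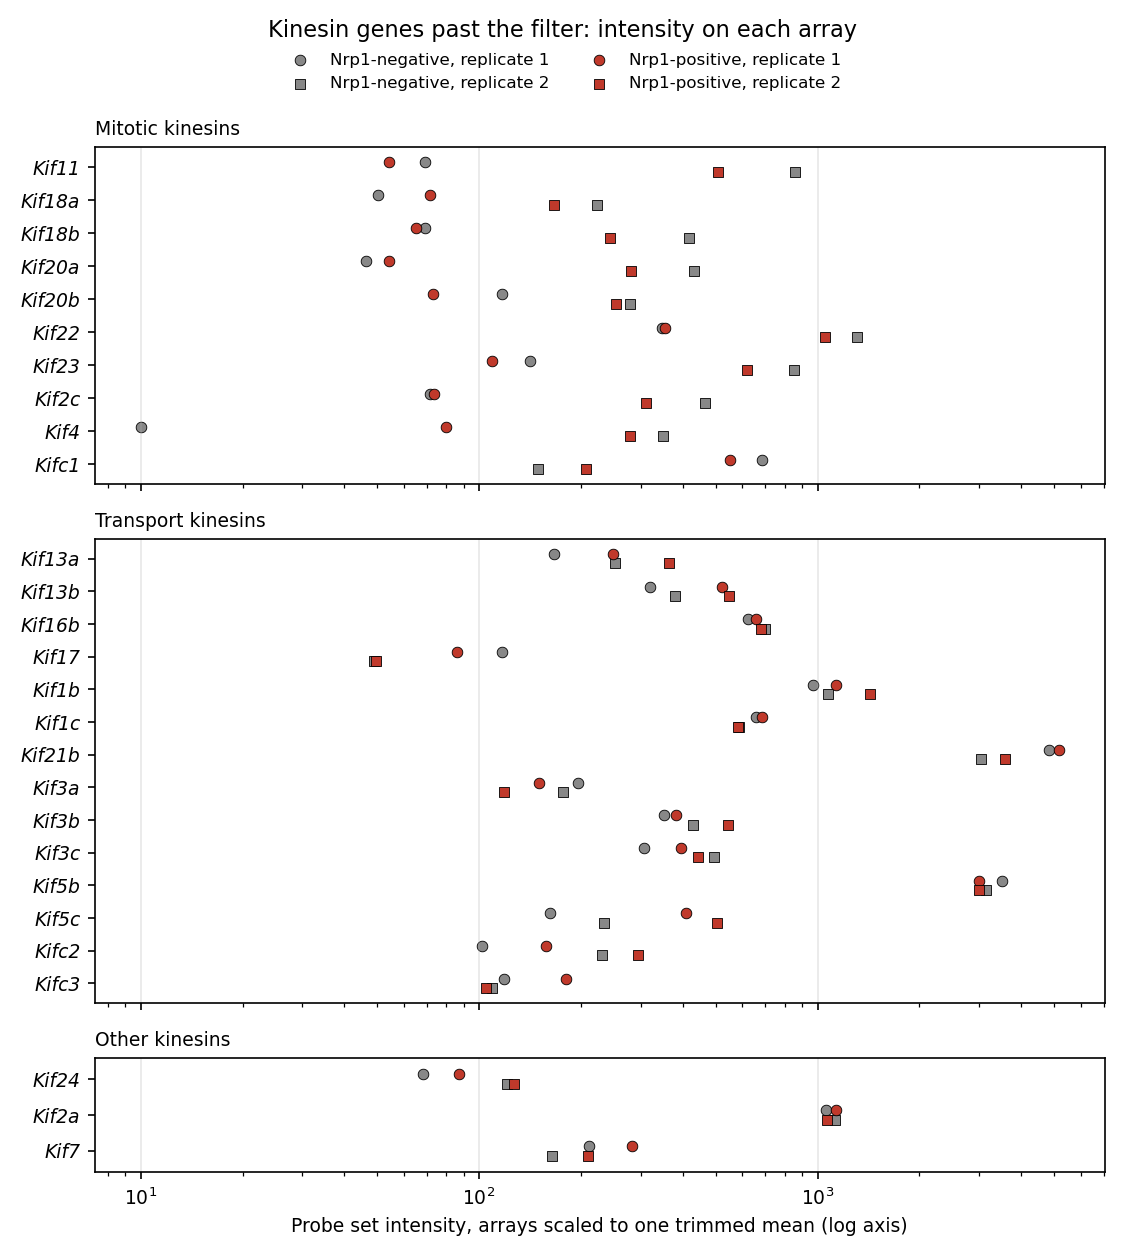
Scaled intensity (log axis) of the 27 kinesin genes past the filter on each of the 4 arrays, in 3 panels by role; grey is Nrp1-negative, red Nrp1-positive, circles replicate 1 and squares replicate 2. Kif5c separates by colour, from 162 and 235 to 409 and 504, whereas the mitotic kinesins separate by symbol shape, and Kifc1 does so in the opposite direction to the other 9.

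Kif5c, a heavy chain of kinesin-1 best known from neurons, was the kinesin gene called between the groups, and it was higher in Nrp1-positive cells. Its intensity was 162 and 235 on Nrp1-negative replicates 1 and 2, and 409 and 504 on Nrp1-positive replicates 1 and 2. Both Nrp1-positive arrays lay above both Nrp1-negative arrays. The mean was 456 ± 67.4 (SD, n = 2) in Nrp1-positive and 198 ± 51.2 (SD, n = 2) in Nrp1-negative cells. The difference was 1.14 with a standard error of 0.20, or 2.21-fold (adjusted p = 0.0451 in limma with the block), and it was 1.24 in replicate 1 and 1.05 in replicate 2. Among all genes tested, 36 were called higher (0.353%) and 24 lower (0.235%), and Kif5c was number 8 of the 36 by size of difference. Of the 27 kinesins, 1 was thus called higher and 0 were called lower, and 4 of 27 had an unadjusted p below 0.05, against 8.69% of all genes.

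The other Kif5c probe sets moved the same way. The second probe set past the filter had intensities of 124 and 137.5 on Nrp1-negative and 235 and 177 on Nrp1-positive arrays, replicate 1 first. Its differences were 0.83 and 0.33 in the replicates. The remaining pair, below the filter, differed by 0.66 and 0.73 and by 0.02 and 0.25. All 4 probe sets were therefore higher in Nrp1-positive cells in both replicates, although probe sets of one gene share their RNA and are not replicates.

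**Figure D2:**
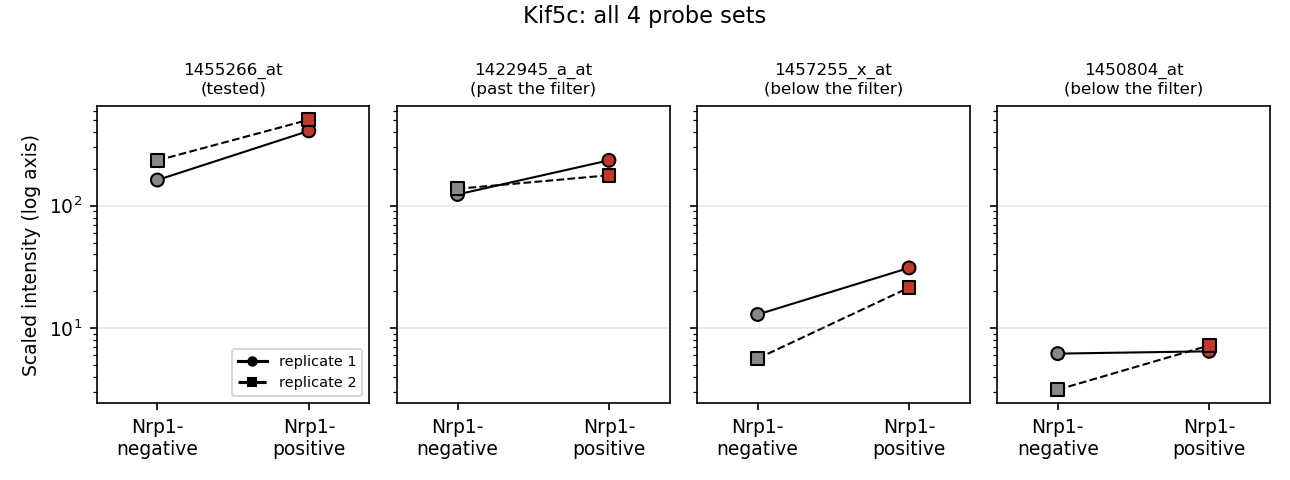
Scaled intensity (log axis) of each of the 4 Kif5c probe sets in Nrp1-negative and Nrp1-positive cells; lines join the arrays of one replicate number. Every line runs upwards, from 162 to 409 and from 235 to 504 for the tested probe set; the dimmest one runs from 6.19 to 6.46 in replicate 1 and from 3.14 to 7.22 in replicate 2.

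The Kif5c call depended on the fit. Without the block the adjusted p was 1.00 in limma with the same difference, without the mean-variance trend it was 0.439, with no filter on low values 0.0908 and with a filter at percentile 60 it was 0.0530, while quantile normalisation gave 0.00522. With the array of conflicting labels counted as Nrp1-positive the difference was 1.05 (adjusted p = 0.999), which is the replicate 2 value, and leaving that array out gave the same 1.05 with no test. An exact test of 2 arrays against 2 that ignores the replicate number allows no exact permutation p below 0.333. Exchanging labels only within replicate numbers, as the block implies, leaves fewer arrangements and a higher limit. Beside this result, the summed intensity of 7 myeloid marker genes was 1709 and 12184 on Nrp1-negative and 2447 and 11187 on Nrp1-positive replicates 1 and 2, and that of 6 B cell marker genes was 429 and 618 against 623 and 722. For 6 CD8 T and NK cell markers the sums were 864 and 1650 against 1225 and 1703, and for 3 erythroid markers 121 and 330 against 97.8 and 70.2. The part of such cells in the Kif5c difference was not tested, and in bulk samples fewer cells of a type and less RNA per cell cannot be told apart.

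Of the other kinesin-1 heavy chains, Kif5b was tested and not called. Kif5b, the heavy chain made in most tissues, had intensities of 3499.5 and 3147 on Nrp1-negative and of 3003 and 2991 on Nrp1-positive arrays. Both Nrp1-positive arrays were lower, with differences of −0.22 in replicate 1 and −0.07 in replicate 2, and the difference of −0.15 (standard error 0.10) was not called (adjusted p = 0.761 in limma with the block). Its 6 probe sets, all past the filter, did not run one way: one differed by −0.09 and −1.43 in the replicates and another by −0.12 and 0.75. Kif5a, the third heavy chain and also neuronal, was below the filter and not tested; its brightest probe set had intensities of 14.5 to 36.2 and differed by 0.70 and −0.08 in the replicates.

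Among the kinesin-3 motors, which move endosomes, vesicles and mitochondria, several were higher in Nrp1-positive cells in both replicates without being called. Kif13b, a motor that binds the polarity scaffold Dlg1, had intensities of 321 and 380 on Nrp1-negative and 521 and 549 on Nrp1-positive arrays, with no overlap. It differed by 0.67 and 0.51 in the replicates and by 0.59 over both (standard error 0.17, adjusted p = 0.253). Its 2 further probe sets above the filter gave 1.23 and 0.17, and −0.39 and 1.36, so they disagreed in replicate 1. Kif13a, which carries endosomal cargo, had 167 and 253 against 249 and 364, so the groups just overlapped, and differed by 0.53 and 0.50 (adjusted p = 0.541). Kif1b, a motor of mitochondria and synaptic vesicle precursors, had 969.8 and 1071 against 1133 and 1426, with no overlap, and differed by 0.22 and 0.41 (adjusted p = 0.477). Kif13a and Kif1b had further probe sets: the second Kif13a probe set past the filter differed by 0.80 and 0.91, whereas of 6 Kif1b probe sets past the filter 2 were higher and 2 lower in both replicates. Kif1c and the early endosome motor Kif16b had differences of 0.03 and 0.01, and Kif1a, a neuronal motor, was below the filter at 17.2 to 45.5. The other Kif16b probe set past the filter was lower in both replicates, at −0.46 and −0.20.

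The kinesin-2 motors, which serve cilia and vesicle transport, showed no called gene. Kif3a had intensities of 196 and 178 on Nrp1-negative and 150.3 and 118 on Nrp1-positive arrays, with no overlap. Its difference of −0.43 (standard error 0.28, adjusted p = 0.730) was not called, and its next probe set gave 0.53 and −0.17 in the replicates, so its probe sets disagreed. Kif3b, the partner of Kif3a in one motor, had 353 and 429 against 382 and 542 and differed by 0.22 (adjusted p = 0.795). Of its 4 probe sets past the filter, 3 were higher in both replicates and 1 was lower in both, at −0.69 and −0.53. Kif3c differed by 0.35 in replicate 1 and −0.16 in replicate 2, and Kif17 by −0.37 and 0.02.

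The remaining transport motors were not called either. Kif21b, a kinesin that limits microtubule growth, had intensities of 4826 and 3048 on Nrp1-negative and 5164 and 3591 on Nrp1-positive arrays, and differed by 0.10 and 0.24 in the replicates. Its relative Kif21a was below the filter, at 3.52 to 40.2. The minus-end-directed Kifc2 had 102 and 231 against 158 and 295, higher by 0.55 and 0.33, and its second probe set was higher by 0.89 and 0.24. Kifc3, also directed to the minus end, differed by 0.54 and −0.05. Across the 14 transport kinesins tested, 11 differences were above 0 and 3 below, with 50.9% above 0 among all genes, and 7 of 14 were above 0 in both replicates, against 27.9% of all genes. The median difference was 0.19, being 0.16 in replicate 1 and 0.13 in replicate 2, beside 0.0041 over all genes. Groups did not overlap for 3 transport kinesins with Nrp1-positive above (12.0% of all genes) and for 2 with Nrp1-positive below (9.06%).

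**Figure D3:**
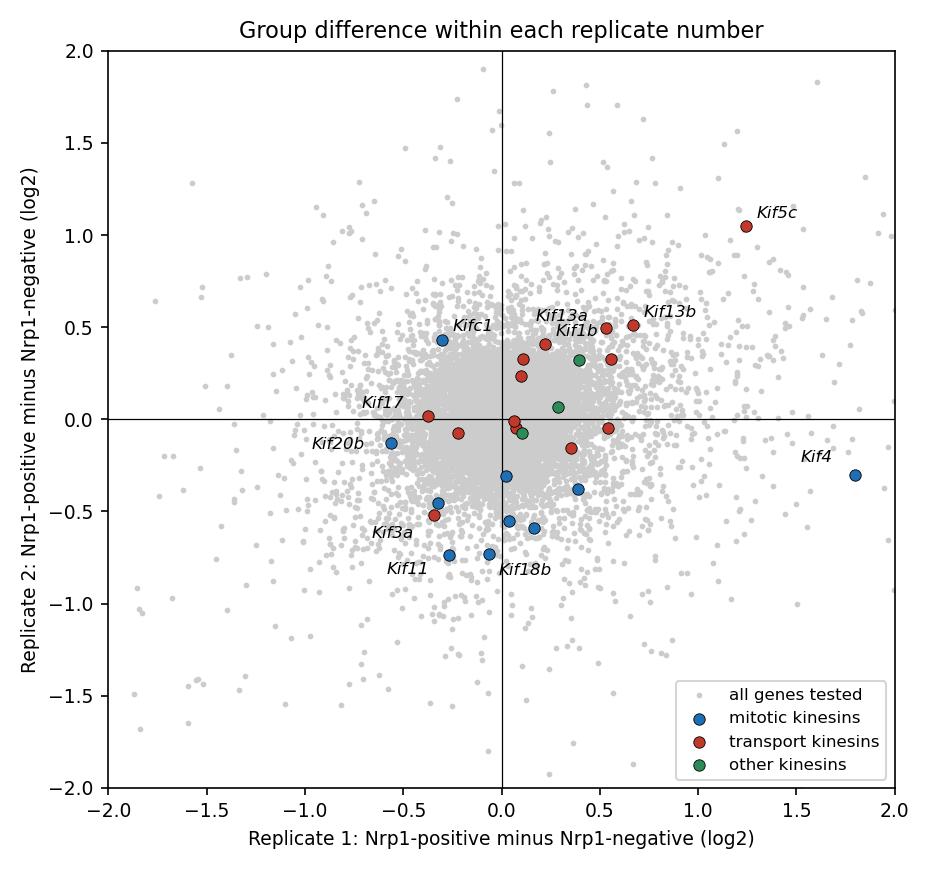
Difference between Nrp1-positive and Nrp1-negative cells (log2) in replicate 1 (horizontal) and replicate 2 (vertical) for 27 kinesin genes, coloured by role, over all genes tested in grey; 42 genes lie beyond the axes. Kif5c stands at 1.24 and 1.05, 7 transport kinesins in all lie above 0 in both replicates, and Kif4 stands apart at 1.80 in replicate 1 and −0.30 in replicate 2.

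No mitotic kinesin was called between the groups. Of the 10 tested, 0 were called higher or lower in limma with the block, beside 0.588% of all genes. Before adjustment 0 reached 0.05, beside 8.69% of all genes. Few or no calls are thus what a list of this size would show. Kif11 came nearest, at an adjusted p of 0.628. The median difference was −0.24, at −0.02 in replicate 1 and −0.42 in replicate 2. In replicate 2, 9 of 10 were lower in Nrp1-positive cells, beside 49.0% of all genes, and in replicate 1 it was 5 of 10, beside 49.1%. The groups overlapped for all 10, and for 8059 of the 10204 genes tested. For the 10 this was bound to follow, because each differed more between replicate numbers than between groups.

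The spindle motors showed this within the replicates. Kif11, which slides spindle microtubules apart to make the spindle bipolar, had intensities of 69.0 and 859 on Nrp1-negative and 54.2 and 508 on Nrp1-positive replicates 1 and 2. It differed by −0.27 and −0.74, and by −0.50 over both (standard error 0.25). Its other probe sets above the filter gave −0.10 and −0.68, and −1.04 and 0.17. Kif18b, which shortens microtubules at their growing ends, had 69.0 and 417 against 65.1 and 244, a difference of −0.07 and −0.73. Kif2c, a microtubule depolymerase of the centromere, had 71.6 and 467 against 73.8 and 312, a difference of 0.04 and −0.55. The tested Kif2c probe set is of a kind that can also bind related transcripts. The second Kif2c probe set past the filter differed by −1.31 and −0.68. Kif18a, a motor that keeps chromosomes aligned, differed by 0.39 and −0.38. These motors had their larger intensities on the replicate 2 arrays of both groups.

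The motors of chromosome arms and of cell division ran similarly. Kif23, the motor of the central spindle in cytokinesis, had 141 and 854 on Nrp1-negative and 109 and 619 on Nrp1-positive arrays, a difference of −0.32 and −0.45. Kif20a, another central spindle motor, had 46.3 and 431 against 54.1 and 280.5, and Kif20b 116 and 279 against 73.0 and 254. Kif22, a chromosome-bound motor, had 348 and 1308 against 354 and 1052, and differed by 0.02 and −0.31. Its tested probe set is of a kind that can also bind related transcripts, and its other probe sets past the filter were lower in both replicates, with differences of −0.74 and −0.45 and of −0.19 and −0.50. Kif4, a chromosome-bound motor that organises the central spindle, had 10.0 and 349 on Nrp1-negative and 80.1 and 279 on Nrp1-positive arrays, so its difference of 0.75 (standard error 0.47, adjusted p = 0.719) joined 1.80 in replicate 1 with −0.30 in replicate 2. Kif14, Kif15 and Kifc5b were below the filter, at 2.70 to 23.2, 3.68 to 36.8 and 40.8 to 69.1.

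Mitotic kinesins were called between the replicate numbers. Of 10 tested, 9 were higher on the replicate 2 arrays and 1, Kifc1, was lower, in the group-adjusted comparison of replicate 2 with replicate 1 in the same limma fit, where 13.5% of all genes were called higher and 12.4% lower. The differences of the 9, each from the tested probe set, ran from 1.36 for Kif20b to 3.09 for Kif11, which is 8.54-fold (adjusted p = 4.48e-05). The other Kif11 probe sets past the filter differed in size. One had 10.4 and 453 on Nrp1-negative and 8.47 and 276 on Nrp1-positive replicates 1 and 2. Another had only 104 and 119 against 41.1 and 135. Kif4 differed by 2.65, Kif20a by 2.42, Kif23 by 2.39, Kif2c by 2.14, Kif18b by 1.98, Kif22 by 1.69 and Kif18a by 1.43. The median over the 10 was 2.06, beside −0.0091 over all genes. In 5 of the 10 the mean on the replicate 1 arrays was below the filter intensity of 72.4, so these passed the filter through the replicate 2 arrays and had to be higher there. These 5 were Kif4, Kif11, Kif18a, Kif18b and Kif20a. With no filter on low values, 9 of all 13 mitotic kinesins were called higher and 1 lower.

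Kifc1, a minus-end-directed motor that focuses spindle poles, ran the other way. It had intensities of 683 and 149 on Nrp1-negative and 551 and 207 on Nrp1-positive replicates 1 and 2. Its replicate 2 value was lower in both groups, with a difference of −1.70 over both (adjusted p = 0.000757 in limma). The gene has 1 probe set here, of a kind that can bind several transcripts of a family, and the near-identical gene Kifc5b, measured by a probe set below the filter, had 50.6 and 40.8 against 48.6 and 69.1. A signal shared between the copies could not be separated.

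Of the 14 transport kinesins, 2 were called between the replicate numbers, beside 25.9% of all genes: Kifc2 was higher on replicate 2 arrays (0.94, adjusted p = 0.0246) and Kif21b lower (−0.59, adjusted p = 0.00331), 12 were not called, and the median was 0.13. Kif5c was 0.39 higher on replicate 2 arrays and not called (adjusted p = 0.187). The 26 mitotic partner genes encode the kinases, checkpoint proteins and cyclins that act with these motors. Of these, 24 were called higher on replicate 2 arrays and 0 lower, beside 13.5% and 12.4% of all genes. Their median was 2.43, and the 2 not called were Ndc80 at 0.83 and Cit at −0.11. For 9 of the 26 the mean on the replicate 1 arrays was below the filter, so these too passed it through the replicate 2 arrays and had to be higher there. The 26 partners include Cenpe, a kinetochore kinesin whose symbol lies outside the naming rule. Cenpe had 107 and 348 on Nrp1-negative and 62.8 and 235 on Nrp1-positive arrays. The proliferation marker Mki67, also among the 26, had 686 and 4713 against 624 and 3792. All 7 myeloid markers also had larger intensities on the replicate 2 arrays of each group, with Lyz2 at 1087.5 and 8992 against 1602 and 8504. The part of myeloid cells, of RNA quality and of processing in the replicate difference was not tested, and the labels do not say in what the replicate numbers differ.

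**Figure D4:**
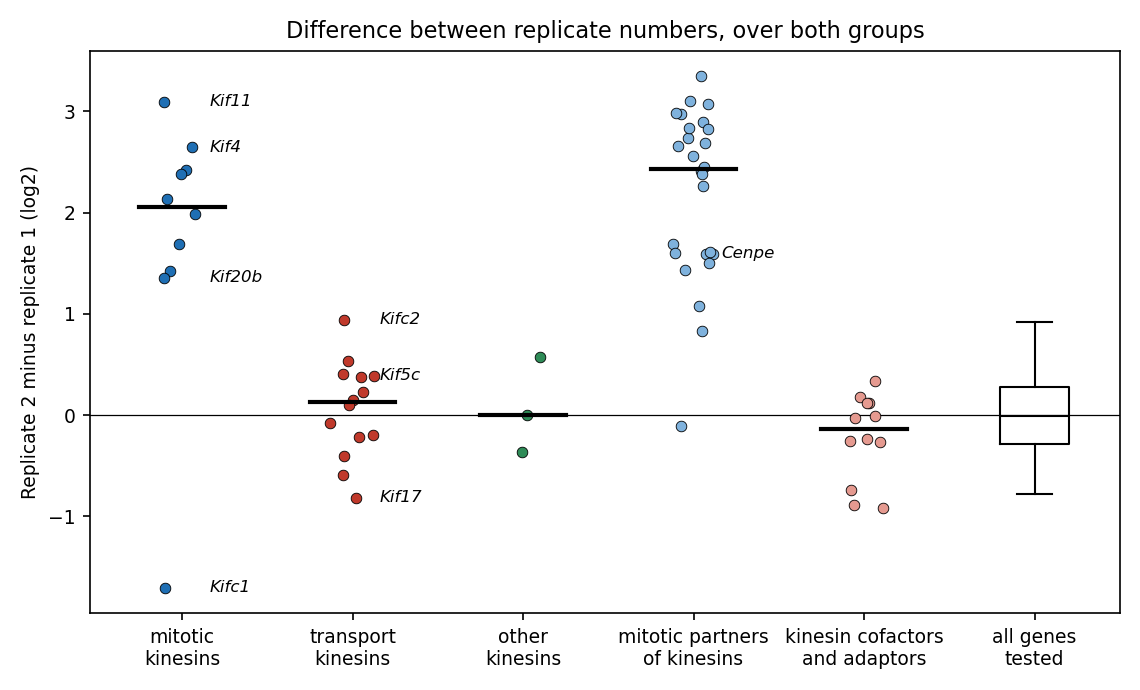
Replicate 2 minus replicate 1 difference (log2, over both groups) of each kinesin gene by role and of 2 lists of partner genes; black bars are medians, and the box for all genes tested shows its quartiles with whiskers at percentiles 5 and 95. The mitotic kinesins other than Kifc1 lie between 1.36 and 3.09 with their partners around 2.43, and the transport kinesins around 0.13.

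Upstream sequence is shown for some of the kinesins that moved together between the replicate numbers, for Kifc1, which did not, and for Kif5c. The RefSeq promoter table (GRCm38.p6) held 33 of the 41 kinesin genes. The 250 bases before each start were searched on both strands for 2 motifs known from cell cycle genes: TTTGAA, the core of the cell cycle homology region, read as TTCAAA on the other strand, and CCAAT, the box bound by NF-Y, read as ATTGG on the other strand. The motifs share no overlapping letters in the sequences shown, and capitals mark each match. Positions are Kif11 at chr19:37376132-37376381 (plus strand), Kif2c at chr4:117178773-117179022 (minus strand), Kif23 at chr9:61946800-61947049 (minus strand), Kifc1 at chr17:33890634-33890883 (minus strand) and Kif5c at chr2:49619036-49619285 (plus strand).
Kif11: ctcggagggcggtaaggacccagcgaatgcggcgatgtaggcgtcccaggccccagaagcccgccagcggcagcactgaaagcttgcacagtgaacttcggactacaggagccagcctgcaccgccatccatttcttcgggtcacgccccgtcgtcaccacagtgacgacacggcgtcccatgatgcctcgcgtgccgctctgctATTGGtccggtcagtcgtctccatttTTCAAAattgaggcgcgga
Kif2c: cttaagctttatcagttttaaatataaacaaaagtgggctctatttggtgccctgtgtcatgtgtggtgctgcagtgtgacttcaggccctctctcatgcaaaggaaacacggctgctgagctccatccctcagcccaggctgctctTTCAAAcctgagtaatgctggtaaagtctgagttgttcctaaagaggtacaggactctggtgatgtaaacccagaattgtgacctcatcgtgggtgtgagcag
Kif23: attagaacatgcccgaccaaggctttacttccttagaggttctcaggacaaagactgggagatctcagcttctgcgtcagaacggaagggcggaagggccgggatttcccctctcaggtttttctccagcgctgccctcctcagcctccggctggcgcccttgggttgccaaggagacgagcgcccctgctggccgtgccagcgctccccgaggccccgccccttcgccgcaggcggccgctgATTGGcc
Kifc1: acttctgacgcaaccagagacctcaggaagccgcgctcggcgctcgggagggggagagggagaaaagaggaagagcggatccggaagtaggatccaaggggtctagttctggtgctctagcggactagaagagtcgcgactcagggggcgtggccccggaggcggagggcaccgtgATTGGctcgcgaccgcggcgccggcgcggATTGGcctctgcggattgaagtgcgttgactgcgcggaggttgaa
Kif5c: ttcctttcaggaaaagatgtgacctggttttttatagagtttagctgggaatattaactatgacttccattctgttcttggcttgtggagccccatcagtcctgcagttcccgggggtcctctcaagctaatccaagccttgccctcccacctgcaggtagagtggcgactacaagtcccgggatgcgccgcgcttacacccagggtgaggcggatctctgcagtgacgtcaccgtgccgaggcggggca

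Kif11 held both motifs, with CCAAT 41 bases and TTTGAA 14 bases before the start. Kif2c held TTTGAA alone, Kif23 a single CCAAT and Kifc1 a pair of CCAAT boxes 70 and 41 bases before the start, although Kif11, Kif2c and Kif23 were higher and Kifc1 lower on replicate 2 arrays. Kif5c held neither. Of 12 mitotic kinesin genes in the table, 5 held TTTGAA and 8 held CCAAT, while of 11 transport kinesin genes 1 held TTTGAA and 3 held CCAAT. Neither motif was found in 2 of the 12 mitotic and 7 of the 11 transport kinesin genes. The 2 were Kif18a and Kif20b, both called higher on replicate 2 arrays. As given above, Kif11 and Kif18a passed the filter through those arrays and had to be higher there. Over all 32851 promoters in the table, 16.0% held TTTGAA, 33.8% held CCAAT and 55.7% held neither. These shares count each start, whereas a kinesin gene was counted if any of its starts held the motif, so they are not alike. These are matches of letters in a short window and were not tested as binding sites.

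The remaining kinesins have roles outside both classes. Kif2a, a microtubule depolymerase active in dividing and resting cells, had intensities of 1058 and 1128 on Nrp1-negative and 1137 and 1069.8 on Nrp1-positive arrays, a difference of 0.01 (standard error 0.12). Its values also hardly moved between the replicate numbers, by 0.0017. Kif7, a regulator of Hedgehog signalling at the cilium, had 211 and 164 against 282 and 209.5, higher by 0.39 and 0.32 in the replicates (adjusted p = 0.741). Kif24, a centriolar depolymerase, differed by 0.29 and 0.07. The other eight genes of this class, Kif2b, Kif6, Kif9, Kif12, Kif26a, Kif26b, Kif27 and Kif28, were below the filter, and none exceeded 73.7 on any array.

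Partner genes are given beside the shares over all genes, of which 0.588% were called between the groups and 8.69% had an unadjusted p below 0.05, so that few or no calls are what lists of this size would show. Of 15 measured cofactors and adaptors, from a list that holds the kinesin light chains, 12 were tested and 0 were called in either direction in limma, with 0 at an unadjusted p below 0.05. The scaffold Spag9 had intensities of 2750 and 2168 on Nrp1-negative and 2825 and 2514 on Nrp1-positive arrays, and the mitochondrial adaptor Trak2 differed by −0.01. Of 20 measured dynein and dynactin genes, which form the motor of the opposite direction, 19 were tested, 0 were called and 1 had an unadjusted p below 0.05, and the light chain Dynll1 differed by −0.04 and the dynactin subunit Dctn6 by −0.01. Of the 26 mitotic partners 0 were called between the groups and 5 had an unadjusted p below 0.05. Their median was −0.28, at −0.0044 in replicate 1 and −0.47 in replicate 2, and the 10 mitotic kinesins had −0.02 and −0.42 there. Incenp, the scaffold of the chromosomal passenger complex that works with Kif20a and Kif23, was −0.19 and −0.17. The Incenp probe set is of a kind that can also bind related transcripts.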

How the data were processed

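Biotin-labelled total RNA extracted with Trizol had been hybridised to 1-colour Affymetrix arrays, per the labels' protocols. The values deposited by the authors are linear signal intensities, and the submitters' processing notes name MAS5 without version or settings. Mean intensity after trimming 2% of probe sets at both ends was the same on arrays of one number, as the deposited values show. Of 45101 probe sets, 64 controls were left out of the tests, and 34945 were listed with 1 gene in the platform annotation; 1 kinesin probe set listed with several genes was not used. Arrays were scaled to one trimmed mean, following the rule by which these genes were chosen, and log2(intensity + 18.3) was fitted; 18.3 equals 0.25 of the average of the array medians. Probe sets whose mean reached percentile 50 stayed in, the brightest stood for its gene, and 10204 genes were fitted with limma 3.58.1 in R 4.3.3 (trend, two-sided, Benjamini-Hochberg). Because the rule compares groups within replicate numbers, the block is in the fit; it left 1 residual degree of freedom beside 8.62 from the variance prior. The fit was tested on simulated data. Alternatives changed the block, normalisation, pseudocount, filter, probe set rule, trend and arrays. All kinesins are accounted for; of the partner lists, called genes and the pair of highest mean intensity were to be named, and Cenpe and Lyz2 were named after their values were seen. Members and lists were chosen with earlier results of these data known. Figures used matplotlib 3.10.9.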

Additional observations from a re-analysis of the deposited data

How the results depend on the processing

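The count of 1 kinesin gene called higher fell to 0 without the replicate block, with no filter on low values, with a filter at percentile 60, without the mean-variance trend, and when the array titled Nrp1-negative replicate 1 was moved to the other group. It was also 0 without that array and the block, an alternative chosen after seeing the data that mixes replicate number with group and moved the mitotic median to −1.29. No kinesin was called lower in any of these limma fits. Over all genes, 60 were called with the block, 51 of 18193 with no filter, 46 of 8834 at percentile 60, 184 with quantile normalisation and 202 with the mean of probe sets. Without the block 0 were called and 150 had an unadjusted p below 0.05; without the trend these were 0 and 870, with the array moved 0 and 390, and without it and the block 0 and 159. The transport median was 0.13 with the mean of probe sets and with that array moved to the other group. With the block kept, leaving out an array gives the other replicate's difference with no test: the transport median was then 0.13 to 0.16, the mitotic median −0.42 to −0.02 and Kif5c 1.05 to 1.24. Over the tested alternatives Kif5c ranged from 0.86 to 1.20, with adjusted p from 0.00522 to 1.00 in limma. The number of mitotic kinesins called higher on replicate 2 arrays was 7 to 9 over the alternative fits with the block that changed normalisation, pseudocount, filter, probe set rule or trend, and the number called lower was 1; the filters change which genes are tested, and shared genes were not counted. Arrays with the same replicate number deviated together from their group means (r = 0.731 across genes, which are not independent replicates); with 2 pairs this is a hint from the data, not the design.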

Other observations

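Tubulins, the building blocks of the tracks on which kinesins walk, were measured for 12 genes and tested for 9, with 0 called between the groups in limma and 2 at an unadjusted p below 0.05, beside 0.588% and 8.69% of all genes. Those were the beta-tubulin genes Tubb2a and Tubb2b, named after their values were seen. The tested Tubb2a probe set is of a kind that can bind several transcripts of a family. A signal shared between these genes could not be separated. Tubb2a had intensities of 2056 and 1199.5 on Nrp1-negative and 1023 and 954 on Nrp1-positive replicates 1 and 2, with no overlap, and differed by −0.66 (adjusted p = 0.137). Tubb2b had 760.02 and 358 against 368 and 219, and differed by −0.84 (adjusted p = 0.111). The alpha-tubulin genes Tuba4a and Tuba1a differed by −0.09 and −0.14. Tubb6 was higher on replicate 2 arrays by 1.82, but its mean on the replicate 1 arrays was below the filter, so it passed through the replicate 2 arrays and had to be higher there. Tuba1a, Tuba4a and Tubb2b were called lower on replicate 2 arrays, beside 12.4% of all genes. Tubb2a, Tubb4a and Tubb5 were also lower there, at −0.43, −0.79 and −0.19, without being called. Tubb4b and Tubg1 were higher there and not called.

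Of the 26 mitotic partners, the 5 with an unadjusted p below 0.05 were all lower in Nrp1-positive cells in both replicates, and none was called in limma. They were named after their values were seen. Birc5, which encodes survivin, differed by −0.65 (adjusted p = 0.0947), the checkpoint gene Mad2l1 by −0.45 (adjusted p = 0.181) and the kinase gene Aurkb by −0.98 (adjusted p = 0.207). Plk1 differed by −0.54 (adjusted p = 0.442) and Cdc20 by −0.38 (adjusted p = 0.470). In the other direction, Ndc80 differed by 0.29 and 0.52 in the replicates and Cit by 0.30 and 0.13, with adjusted p of 0.766 and 0.890. The tested probe sets of Aurkb, Cdc20 and Cit are of a kind that can also bind related transcripts.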
